A study of Homo sapiens with 172 samples.

Results

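Chromosome 1 was described by every 100 kb bin of that chromosome that carried a value and was not 0 in all columns of the deposited table. These were 2227 bins out of 26414 covered bins in all, or 8.43%. Apart from leaving out bins at 0 in every column, the choice used no measured contact value. The stretches, bins and cells named below were picked by their measured values and are descriptions only. Of the 2493 bins of chromosome 1, 238 had no value and 28 were 0 throughout. These 28 are not among the bins without contact counted below. Positions are 1-based and in hg19, the build that the submitters' processing notes name.

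The study mapped contacts of DNA with the nuclear lamina in single cells by DamID. All 172 samples are labelled as haploid cells (1N) of clone 5-5 of KBM7, a human leukaemia line, which carried the Dam methyltransferase fused to LaminB1. Per the labels' protocols, Dam activity was switched on 15 h before harvest with 0.5 nM Shield1, and single cells were sorted from the smallest 2% of those positive for both Fucci reporters of the cell cycle. There is 1 clone, 1 condition and no named culture, so no test between groups was possible, and each SD below is over cells, not over replicate cultures. Counting intervals and floors cover counting error only, since amplified copies of a molecule were not marked and may be counted more than once.

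The nuclear lamina is a meshwork of lamin proteins under the inner nuclear membrane. DNA that lies against it falls into broad lamina-associated domains, which are known as gene-poor, late-replicating and mostly silent, while gene-rich chromatin tends to lie in the interior. In DamID, the fusion marks adenines in GATC sites near the lamina, so a methylated site records that it came near at some time during the labelling. Chromosome 1 is the largest human chromosome. It is known for a gene-rich outer short arm and for a large block of heterochromatin beside the centromere on its long arm.

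A value gives the observed reads of a bin over the expected reads, as a ratio, and a ratio of at least 1 was called a contact. Each cell appears as a pair of columns, with sample numbers 86 apart. On chromosome 1 alone, 168 of 168 columns correlated best with the column 86 numbers away. In 79 cells with enough reads for the comparison, the 2 columns differed by less than the sampling noise in 78 (chi-square per bin under 1, median 0.368), and cell 77 stood at 1.23. The columns were averaged and counted as 1 cell, which gave 84 cells, named here by the lower number. The deeper column of a cell held between 627 and 31992 reads on chromosome 1, with a median of 4385. In the median cell, 2.69 reads made up a ratio of 1 in a typical bin of chromosome 1. In 13 cells it took less than 1 read, so that 1 read already gave its column a ratio above 1 in such a bin. There a bin without contact may also be one that was missed, and a contact may rest on 1 read. These read numbers were recovered from the ratios.

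Chromosome 1 met the lamina less than the rest of the genome did. In the average cell 23.0% ± 7.39 of its bins were in contact (SD, n = 84), from 7.05% in cell 46 over a median of 24.3% to 41.6% in cell 48. All other covered bins stood at 28.2% ± 6.73. The difference per cell was -5.16 ± 6.41 percentage points, and chromosome 1 was lower in 72 of 84 cells. Chromosome 2, the nearest in length, had 29.2% ± 9.57 in contact, and chromosome 1 was below it in 69 of 84 cells. By mean share, chromosome 1 came 15th of the 22 chromosomes with values, with the fused chromosomes of this line counted as the table names them. With 8.27 coding genes per Mb in the RefSeq table it stood 6th of 20 in gene density, a ranking without the fused chromosomes. Cells 63, 69 and 79 had nearly no reads on some other chromosomes: cell 69 had 0% of chromosome 2 in contact, and in cell 79 chromosome 1 exceeded the rest by 14.1 points. Without cells 63, 69 and 79 the mean difference was -5.51 points.

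Contact frequency is the percent of the 84 cells in which a bin was in contact. Over the 2227 bins it had 2 humps, with 1206 bins under 10% and a second rise to 207 bins at 50 to 60%, and only 90 bins lay at 30 to 40%. Bins contacted in under 5% of cells made up 45.2% of chromosome 1 (1006 bins), against 36.7% of all covered bins and 35.8% of chromosome 2. Bins contacted in at least 50% of cells made up 24.0% (535 bins), against 30.7% of all covered bins and 33.9% of chromosome 2. At least 80% of cells were reached by 11 bins, or 0.494%, against 0.303% of all and 0.381% of chromosome 2. Below 20% lay 61.9% of its bins, against 52.3% of all and 51.0% of chromosome 2, and between 20 and 80% lay 37.6% (837 bins), against 47.4% and 48.7%. No bin was contacted in over 90%. In 177 bins, or 7.95% against 6.19% of all and 5.75% of chromosome 2, no cell had a contact, and 0 of 84 cells leaves room for up to 3.57%. The profile was much the same in separate sets of cells: across bins the frequency in odd-numbered cells correlated with that in even-numbered cells at r = 0.966, a description over neighbouring bins that are not independent.

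The bins fell into arms at the longest stretch without signal, 1:121400001-142500000, which covers 21.1 Mb at the centromere and the heterochromatin beside it. The short arm had 1195 covered bins and the long arm 1032. In the average cell 20.9% ± 7.62 of the short arm and 25.5% ± 9.03 of the long arm were in contact. The long arm was higher by 4.59 ± 7.59 points, in 65 of 84 cells. The arms differed most in their free bins: 51.3% of the short arm and 38.1% of the long arm were contacted in under 5% of cells, with median frequencies of 4.76% and 11.9%. They were close in frequently contacted bins, with 23.5% and 24.6% of bins at 50% or more. All 11 bins at 80% or more were on the long arm. In the 35 cells with at least 100000 reads, however, 160 bins reached 80%, 51 of them on the short arm, so the split of this class between arms depended on which cells were counted.

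**Figure D1:**
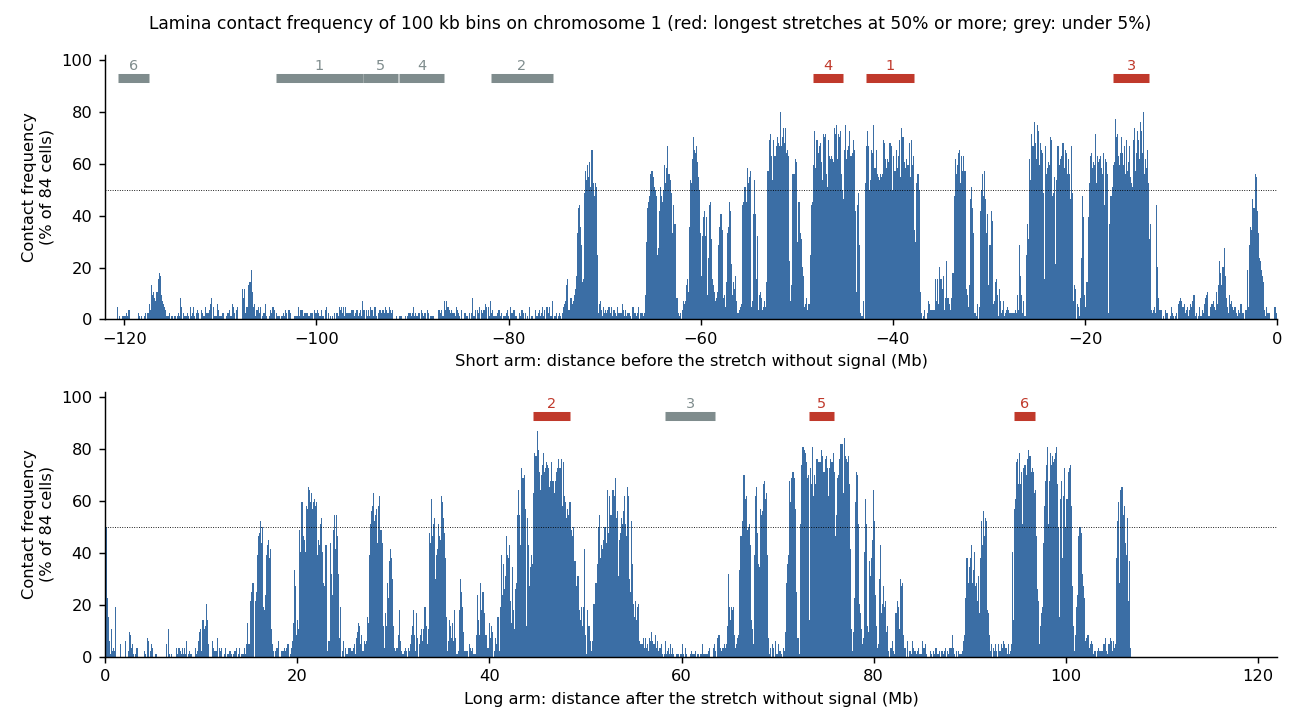
Contact frequency (percent of 84 cells, vertical axis) of each covered 100 kb bin, plotted by its distance in Mb from the 21.1 Mb stretch without signal, with the short arm above and the long arm below. Red bars mark the 6 longest stretches at 50% or more and grey bars the 6 longest under 5%, numbered by length. The outer short arm stays near 0 up to the first broad block, and contacted blocks alternate with free ones elsewhere.

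The outer short arm was the largest free territory. In windows of 5 Mb, the 9 windows from the start of the chromosome to 45 Mb all had mean frequencies between 1.79% and 4.60%. This limit was chosen after seeing the values. Over its 436 covered bins the mean was 2.57%, against 31.4% ± 11.8 in the remainder of the short arm. In a single cell the share in contact ran from 0% over a median of 1.49% to 19.5%, and 15 cells had no contact there at all. The highest value belonged to cell 48, whose reads were spread over 98.2% of the bins of chromosome 1, against 44.9% in the median cell. Without cells 48, 54 and 56 the mean was 2.22% and the highest value 16.1%, in cell 39.

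Beyond these windows, 5 others averaged under 5%, at 110 to 115 Mb on the short arm and at 145 to 150, 150 to 155, 200 to 205 and 225 to 230 Mb on the long arm, with 1.64% to 4.36%. Another 5 of the 45 windows averaged at least 50%. These were 75 to 80 Mb with 52.8%, 80 to 85 Mb with 50.9% and 95 to 100 Mb with 54.8% on the short arm, and 185 to 190 Mb with 62.1% and 215 to 220 Mb with 72.2% on the long arm. The last of these was in contact in every cell to some degree, with 10.0% of its bins in the lowest cell, a median of 81.0% and 100% in the highest. Every cell also had some contact at 75 to 80 Mb and at 185 to 190 Mb, with 6.00% and 10.0% of the bins in the lowest cell. Free and contacted windows could lie close together, as 200 to 205 Mb with 1.64% and 215 to 220 Mb with 72.2% did.

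Bins at 50% or more formed 77 stretches, of which 16 were at least 1 Mb long and held 64.7% of these bins, while 20 were single bins. The 6 longest are described here as the main contacted domains of the chromosome, 3 on each arm. The longest, 1:78600001-83600000, spans 5.0 Mb of the short arm with a mean frequency of 61.7%. It was 0% in contact in the lowest cell, 64.0% in the median cell and 100% in the highest. The bin before it was contacted in 9.52% of cells and its first bin in 52.4%. It is the longest only while single bins under 50% end a stretch: with these bridged, the longest was 1:214800001-220000000 on the long arm, with 5.2 Mb and a mean of 71.8%.

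The next, 1:187000001-190900000, spans 3.9 Mb of the long arm with a mean of 69.7%. Its share per cell ran from 10.3% over a median of 74.4% to 100%, so that every cell touched it somewhere. It holds the most frequently contacted bin of chromosome 1, described below.

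The stretch 1:104300001-108100000 covers 3.8 Mb of the short arm with a mean of 63.6% and per-cell shares of 7.89%, 65.8% and 100% for the lowest, median and highest cell. The stretch 1:73100001-76200000 covers 3.1 Mb, also on the short arm, with a mean of 64.6% and shares of 3.23%, 71.0% and 100%. These short-arm stretches thus had medians between 64.0% and 71.0%, and their ranges over cells overlapped almost fully.

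On the long arm, 1:215800001-218400000 covers 2.6 Mb with a mean of 73.0% and shares of 3.85%, 84.6% and 100%. The shortest of the 6, 1:237100001-239300000, covers 2.2 Mb with a mean of 70.3% and shares of 4.55%, 81.8% and 100%. The long-arm stretches had the 3 highest means. The spread between cells was wide, with SDs from 24.5 to 30.9 points over all 6, and differences between stretches within a cell were not computed.

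Within a cell a stretch was often contacted in part rather than wholly or not at all. For the longest stretch, 15 cells had at least 90% of its bins in contact, 68 had 10 to 90%, and 1 had under 10%. For 1:215800001-218400000 the numbers were 36, 46 and 2, and for 1:237100001-239300000 they were 34, 45 and 5. In the 35 cells with at least 100000 reads the mean frequencies of the 6 stretches were higher, between 72.8% and 84.9%, against 61.7% to 73.0% in all cells. Depth and frequency thus moved together, and the part of depth in the partial contacts was not tested.

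**Figure D2:**
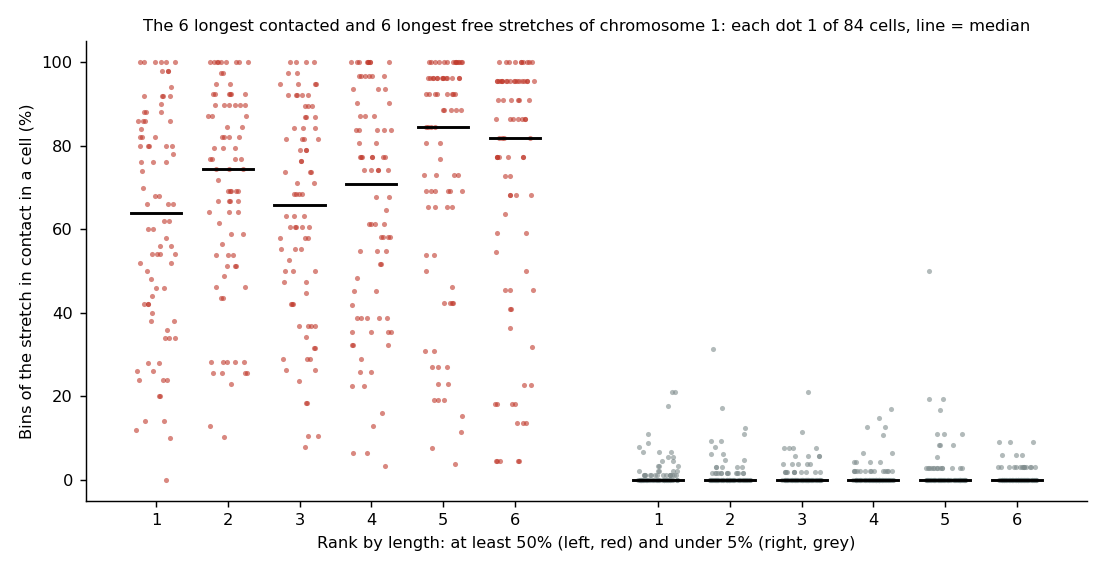
Percent of the bins of a stretch in contact in a cell (vertical axis), for the 6 longest stretches at 50% or more (red) and the 6 longest under 5% (grey), each dot 1 of 84 cells with sideways jitter and each line the median. Red medians lie between 64.0% and 84.6% with cells spread over nearly the whole axis, and grey medians are 0%.

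The 11 bins at 80% or more formed 7 stretches, none longer than 0.4 Mb, and all lay on the long arm. The highest was 1:187400001-187500000, contacted in 73 of 84 cells, or 86.9% (exact Clopper-Pearson 95% interval 77.8 to 93.3%). In the 35 deepest cells, those with at least 100000 reads, it was contacted in 97.1%. The bin 1:219400001-219500000 followed with 71 cells, or 84.5% (75.0 to 91.5%). The longest run of such bins, 1:218900001-219300000, was wholly in contact in 56 cells and not at all in 5.

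The stretch 1:215000001-215200000 and the single bins 1:216000001-216100000, 1:240500001-240600000 and 1:241400001-241500000 all had 81.0%. Their intervals, 70.9 to 88.7%, overlap with that of the highest bin. All bins were scored in the same 84 cells, so overlap does not decide their order, which was not tested. These bins were picked as the highest of 2227. The bins at 240500001 and 241400001 each stood at 94.3% in the 35 deepest cells.

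Bins under 5% formed 145 stretches, of which 29 were at least 1 Mb long and held 69.8% of these bins. The longest, 1:17200001-26200000, spans 9.0 Mb of the short arm with a mean frequency of 1.98%. It had no contact in 47 cells and at most 21.1% of its bins in contact in any cell. Of the next 5, 4 lie on the outer short arm as well: 1:39600001-46000000 with 1.88%, 1:30000001-34700000 with 1.52%, 1:26300001-29900000 with 2.48% and 1:700001-4000000 with 1.05%. The long arm has 1:200800001-206000000 with 1.51%. In each of the 6 the median cell had no contact.

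The covered bins next to them, just outside the limit, were contacted in 5.95% or 7.14% of cells, and 5 of their 12 borders lie at uncovered bins. When single bins above the limit were bridged, the longest free stretch became 1:30000001-47200000, which is 17.2 Mb long with a mean of 2.03%. In the 35 deepest cells the mean frequencies of the 6 free stretches were lower, between 0.346% and 0.938%, against 1.05% to 2.48% in all cells. Contact calls in free bins were thus less frequent in deeper cells, and calls in contacted stretches more frequent.

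Contacts in rarely contacted bins came unevenly from the cells. The 1006 bins under 5% held 1860 contacts in all 84 cells together, with a median of 10.0 per cell. Cell 48 contributed 260 of them, or 14.0%, cell 6 contributed 107 and cell 39 contributed 105. In cell 39, 50.0% of the bins of 1:26300001-29900000 were in contact, with 67 reads in its deeper column where a ratio of 1 throughout would take 48.6 reads. No other cell had at least 50% of any of the 6 free stretches in contact.

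Inside the outer short arm, 2 small islands stood above the surroundings, chosen after seeing the values. The island 1:4200001-5600000 had a mean frequency of 10.7%, with no contact in 47 cells, a median of 0% and 100% of its bins in cell 69. The island 1:14300001-14800000 had 14.3%, with no contact in 56 cells and at least 50% of its bins in contact in 10. Its most contacted bin, 1:14600001-14700000, was contacted in 16 of 84 cells, or 19.0%. The only runs of contact of at least 1 Mb that lay wholly within the first 45 Mb overlapped these islands. They were found in cell 69 (2.0 Mb), cell 12 (1.3 Mb) and cell 3 (1.0 Mb). In these few cells an island was called in contact as a block, while most cells had none of its bins in contact. In cell 3 a ratio of 1 took 0.695 reads in a typical bin, so its contacts may rest on 1 read each. Cell 69 had nearly no reads on some other chromosomes.

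Some borders between free and contacted chromatin were sharp on this scale and others were not. Between adjacent bins the frequency differed by a median of 2.38 points over 2208 pairs. The highest difference, 58.3 points, was at 215800001, from 14.3% in a single low bin to 72.6%, inside the block that bridging joins. At the right border of 1:187000001-190900000, in contrast, the frequency only went from 59.5% to 48.8%, and at the left border of 1:73100001-76200000 from 45.2% to 59.5%. The 5 largest steps, described next, were picked from 2111 positions by their size. The largest step between the means of 5 bins on either side was at 214900001, where the mean rose from 18.3% before to 78.8% after. On the side of higher frequency, 79 cells had more contacted bins than on the other side, 5 had equal numbers and 0 had fewer. At 78600001, the left border of the longest contacted stretch, the mean rose from 3.81% to 61.7%, and 74 cells followed this direction with 0 against it.

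The other 3 largest steps were downward. At 220000001 the mean went from 74.5% to 17.4%, at 211400001 from 59.5% to 2.86%, and at 243100001 from 67.4% to 13.8%, with 73, 72 and 70 cells in this direction and 2, 0 and 2 against it. At 243100001 the expected reads per bin also dropped, to a median of 86.0 units after it against 320 over chromosome 1, so that fewer reads made a contact there. At the other 4 borders the medians of the 5 bins on either side lay between 277 and 382. The steps at 214900001 and 220000001 bound the most contacted window of the chromosome on both sides.

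The ends of the chromosome differed. The first 700000 bases had no signal, and the covered bins from 700001 to 2000000 had a mean frequency of 1.65% ± 4.15 (SD of the share over 84 cells), with 70 cells at 0%. The last bins, 1:247300001-249250621, had a mean of 35.1% ± 22.5, with a lowest cell at 0%, a median of 35.0% and a highest of 85.0%. The remainder of the arms stood at 21.1% and 25.3%. The contacted end was itself a block: bins up to 247700000 were at 5.95% or less, bins from 247700001 to 249100000 were between 21.4% and 65.5%, and the last 2 were at 3.57% and 0%.

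Positions of genes came with another build (GRCh38.p14) and were not set against the bins, so genes are given by their order only. Of the 60 outermost coding genes at the long-arm end, 43 are olfactory receptor genes, which encode odorant receptors and are known to be silent in most tissues, against 3 of the 60 at the short-arm end. On the whole chromosome, 61 of 2061 coding genes are olfactory receptor genes. Whether those at the long-arm end lie in the contacted bins was not examined.

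Next to the stretch without signal, contact was below the average of both arms. The 16 covered bins of the 2 Mb before it had a mean of 11.0% ± 13.6, with a median cell at 6.25%, against 21.0% in the remainder of the short arm. The 12 covered bins of the 2 Mb after it had 13.5% ± 12.6, with a median cell at 8.33%, against 25.6% in the remainder of the long arm. These 12 bins had a median expectation of 5.00 units, against 320 over chromosome 1, so that a single read could make a ratio above 1. Over all bins the expectation and the frequency were nearly unrelated (r = 0.05 over 2227 bins, given as a description), but the 38 bins with an expectation under 50, of which 23 are on the long arm, had a mean frequency of 12.2% against 23.2% for the remainder.

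Contacted bins came in runs along the chromosome. A cell had a mean of 160 runs of consecutive contacted bins on chromosome 1, with a mean length of 3.54 ± 1.57 bins of 0.1 Mb (SD, n = 84). The lowest mean was 1.36 bins in cell 54, the median 3.27 and the highest 7.40 in cell 78. On the other chromosomes the mean was 3.73 ± 1.54 bins, and runs on chromosome 1 were shorter in 50 of 84 cells. Both lengths come from the same cells, and the spread of their difference within cells was not computed. The arms had nearly equal mean lengths, 3.56 bins on the short and 3.53 on the long arm. Of the 13414 runs in all cells, 52.4% were single bins, yet runs of at least 1 Mb held 34.5% ± 20.5 of the contacts of a cell.

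The longest run of a cell was 3.10 Mb ± 1.41 on average and ranged from 0.800 Mb in cell 54 to 6.20 Mb in cell 69. That run, 1:214800001-221000000, took in the most contacted window of the long arm. Cell 69 had nearly no reads on some other chromosomes. The next were on the short arm, 1:78600001-84500000 in cell 70 with 5.9 Mb and 1:78500001-84300000 in cell 32 with 5.8 Mb. Both began at or next to the sharp border at 78600001. The bin most often inside a run of at least 1 Mb was 1:238100001-238200000, in 51 of the 62 cells that contacted it.

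Run length moved with depth. Over 84 cells the mean run length had r = 0.76 with log10 reads and r = 0.63 with the contact share of chromosome 1, both given as descriptions. In 73 cells whose summed reads were thinned to 30000, the mean length was 2.53 bins, against 3.82 bins in the same cells at full depth, with 11 shallower cells left out. The contact share in these cells was 21.6% after and 23.8% before thinning. Cell 48 stood apart, with the highest contact share but a mean run of 2.04 bins, although its deeper column held 264834 reads.

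Cells differed in how much of chromosome 1 was called in contact and in which blocks were. The share moved with depth: over 84 cells it had r = 0.42 with log10 reads, and the share of the other chromosomes had 0.77. In the 73 cells thinned to 30000 reads the SD of the chromosome 1 share was 5.86 points, against 7.24 at full depth. The part of depth in the spread between cells was not tested. The 3 lowest cells were cell 46 with 7.05%, cell 57 with 7.59% and cell 58 with 8.89%, and the 3 highest were cell 48 with 41.6%, cell 69 with 40.5% and cell 32 with 39.5%. In cell 46 the other chromosomes stood at 30.5%, close to the mean over cells, and only 2.84% of its reads lay on chromosome 1, against a median of 7.12%. Its low value was thus seen on chromosome 1 and not over its genome. Cell 57 was low elsewhere too, with 15.6%, and cell 58 was not, with 26.6%. Of the 3 highest cells, cell 69 had 11.0% of its reads on chromosome 1 and nearly no reads on some other chromosomes. Cell 48 had 8.86% of its reads on chromosome 1, spread over 98.2% of the bins, and cell 32 had 9.97%. The part of these read shares in the high values was not tested. Over cells the share of chromosome 1 correlated with that of the other chromosomes at r = 0.59 (n = 84, a description; both come from the same library and its depth).

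**Figure D3:**
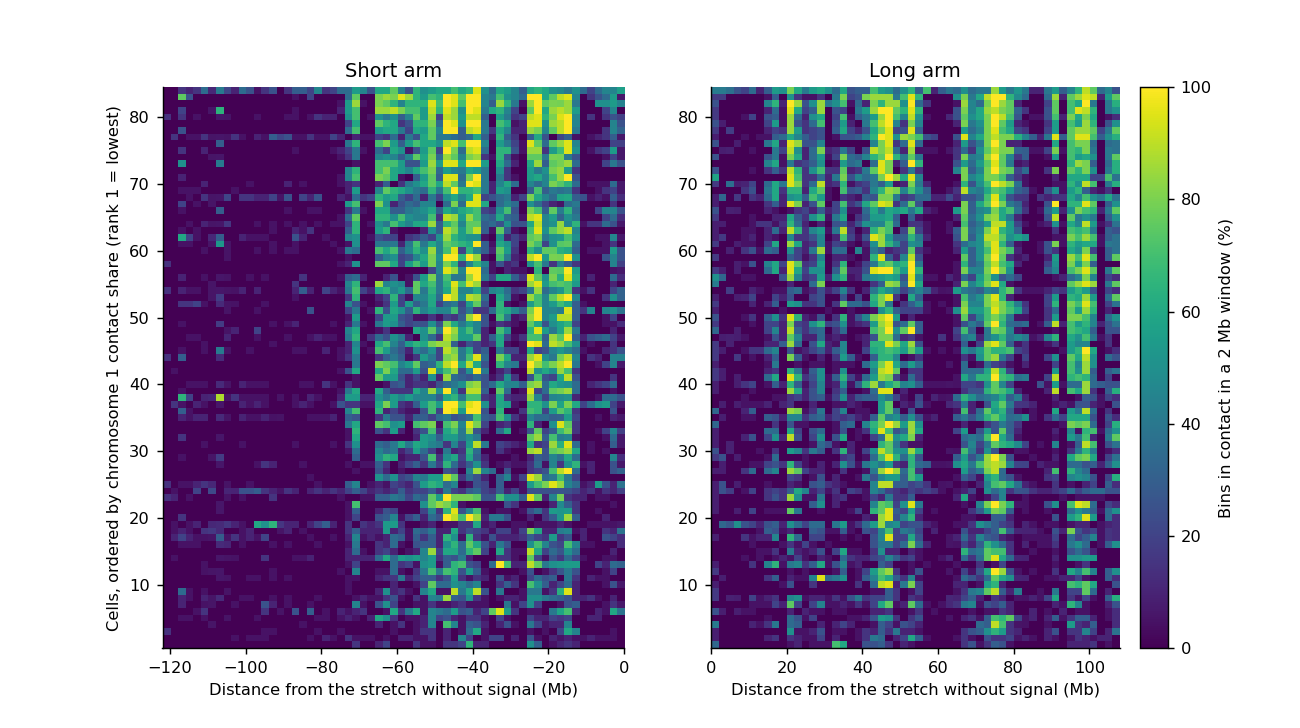
Percent of bins in contact in windows of 2 Mb (colour) for each of 84 cells (rows, ordered by their chromosome 1 contact share, with the lowest at the bottom) against distance in Mb from the stretch without signal, short arm left and long arm right. The same blocks are bright in most rows, the outer short arm is dark in nearly all, and cells in the lower rows have fewer bright blocks.

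Any pair of cells shared only part of its contacts. Of the bins contacted in at least one cell of a pair, a median of 32.9% were contacted in both, from 6.08% to 74.3% over 3486 pairs, the highest in cells 51 and 61. Unequal contact shares of the cells limit this value, and shallow cells may miss bins. It was corrected for neither. The 2 columns of the same cell shared a median of 74.3%, but they are not independent libraries, so this value is no measure of reproducibility. The short arm (median 32.0%) and the long arm (32.7%) were alike in this respect.

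The arms of a cell moved together in part. Their contact shares correlated at r = 0.60 over 84 cells, and at 0.44 after a linear correction for how much of the other chromosomes was in contact. Among 16 chromosomes the corrected value ranged from 0.25 to 0.63 with a median of 0.46, and chromosome 1 came 10th. Chromosomes 13, 14, 15 and 21 and the fused 9:22 and 22:9 were left out of this ranking. The value differed between sets of cells: it was 0.07 among the 29 cells numbered 1 to 29, 0.54 among the 55 cells numbered from 30, and 0.55 in the 35 cells with at least 100000 reads. The cause was not tested.

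Some cells had the arms far apart. In cell 55, 44.4% of the long arm and 19.2% of the short arm were in contact, and in cell 73 the values were 40.4% and 15.5%. In cell 18 the order was the opposite, with 13.2% and 31.4%, and in cell 77 the long arm stood at 4.26% with the short arm at 18.7%. Contacts are called from the reads, so the split of reads between the arms is no separate support. Of the chromosome 1 reads, 74.9% in cell 55 and 24.8% in cell 18 were on the long arm, against a median of 51.0%. The low arm was not empty of signal: the short arm of cell 55 held 801 reads, with 52.0% of the bins of 1:78600001-83600000 in contact, and the long arm of cell 18 held 910 reads, with 64.1% of 1:187000001-190900000 in contact. The long arm of cell 77 held 642 reads. In cell 55 a ratio of 1 took 0.853 reads in a typical bin, so a contact there may rest on 1 read. Cell 77 was the cell whose 2 columns differed by more than the sampling noise (chi-square per bin 1.23).

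**Figure D4:**
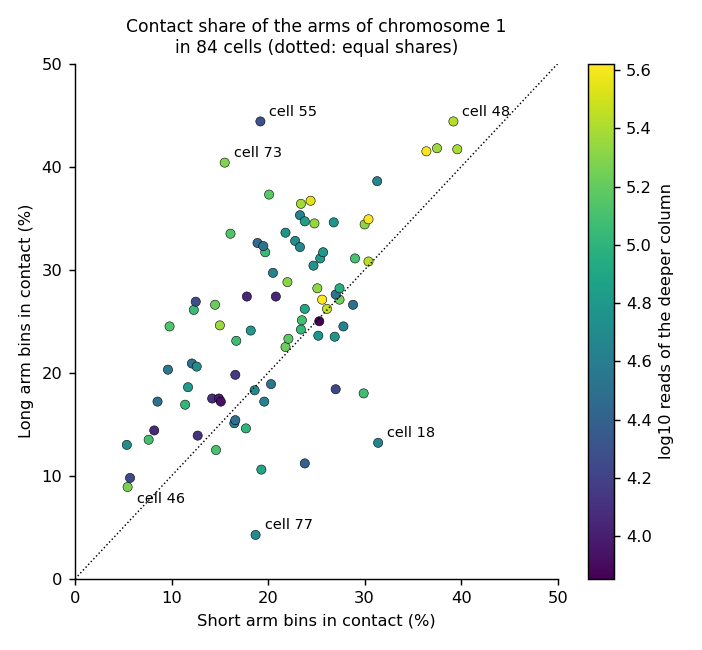
Percent of short-arm bins (horizontal axis) and long-arm bins (vertical axis) in contact, each dot 1 of 84 cells, coloured by log10 reads of the deeper column, with equal shares on the dotted line. In all, 65 cells lie above the line, and cells 18 and 77 lie farthest below it.

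The 6 longest contacted stretches were often at the lamina in the same cells. All 6 had at least 50% of their bins in contact in 28 cells, 5 of them in 25 cells, and none in 3 cells. Taken singly, each stretch reached this in 56 to 67 of the 84 cells. The stretches were picked for frequent contact, so many shared cells follow from the choice. These counts are not corrected for depth. The corrected correlation over cells was between 0.29 and 0.59 (median 0.50) for the 6 pairs on the same arm, and between 0.11 and 0.38 (median 0.28) for the 9 pairs across arms. The pairs share cells and stretches, so these values are descriptions. On the short arm, 1:78600001-83600000 and 1:104300001-108100000, which lie 25.1 Mb apart, had r = 0.56. On the long arm, 1:187000001-190900000 and 1:237100001-239300000, which lie 49.2 Mb apart, had r = 0.59. The neighbours 1:73100001-76200000 and 1:78600001-83600000, at 6.45 Mb, had r = 0.47. The other same-arm pairs, 21.1 to 31.6 Mb apart, had 0.29, 0.45 and 0.53, so the 6 pairs showed no order by distance.

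Over the 837 bins of 20 to 80% frequency the correlation was lower at longer distances within the arms, but not across them. Adjacent bins had a mean corrected r of 0.434 over cells, bins 1.1 to 2 Mb apart 0.248, and bins 5.1 to 10 Mb apart 0.134. By the adjacent value chromosome 1 came 12th of 21 chromosomes, whose values ran from 0.372 on chromosome X to 0.541 on chromosome 17. The arms followed nearly the same course, with 0.425 and 0.442 for adjacent bins of the short and the long arm. At more than 50 and up to 100 Mb, pairs within the short arm had 0.081, pairs within the long arm 0.077 and pairs across the arms 0.043. At more than 20 and up to 50 Mb the values were 0.101, 0.090 and 0.000, but only 1398 pairs lie across the arms at this distance. Beyond 100 Mb, where 124541 of 124622 pairs lie across the arms, the pairs across had 0.057, so the values across the arms were 0.000, 0.043 and 0.057 from the nearer to the farther class. Whether the within-arm and across-arm values differ was not tested.

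**Figure D5:**
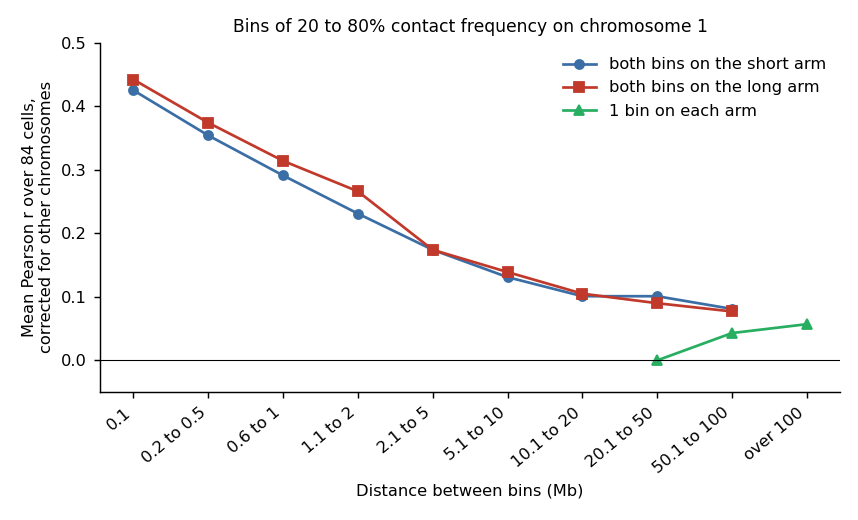
Mean Pearson r of contact over 84 cells, corrected for the share of other chromosomes in contact (vertical axis), for pairs of chromosome 1 bins of 20 to 80% contact frequency in classes of distance in Mb (horizontal axis, uneven classes). Values fall from 0.425 and 0.442 for adjacent bins within the arms to 0.081 and 0.077 at more than 50 and up to 100 Mb, and pairs across the arms lie at 0.043 there and at 0.057 beyond 100 Mb.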

How the data were processed

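Per the labels' protocols, DNA was cut with DpnI and amplified by PCR from ligated adaptors. The submitters' processing notes name cutadapt, Bowtie2 2.1.0 and hg19. The authors deposited the ratio of observed over expected reads per 100 kb bin. For duplicate reads and the making of the expectation, the methods were not given in the sources used here. Samples 81, 82, 167 and 168 are not analysed here.

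The ratios of columns n and n + 86 were averaged. Whole reads were recovered as multiples of a step per bin and a factor per column (99.9998% whole within 0.02), which also gives the expectation in relative units. On data simulated around these reads with the same kind of step and factor, 99.980% of values above 0 were given back. This checks the code, not whether the deposited ratios were built in this way. Correlations were corrected by a linear fit on how much of the other chromosomes was in contact. Runs and stretches end at uncovered bins. Python 3.11.15, numpy 2.4.6 and scipy 1.17.1 were used.

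Regions named were the 6 longest stretches at 50% or more and under 5%, all at 80% or more, the 5 largest steps, the ends and the flanks of the stretch without signal; cells named were the 3 highest, the 3 lowest and the 3 with the longest runs. Other cells and the islands were picked after their values were seen. Members, rules and lists were chosen with earlier results of these data known. With no genome of this build at hand, genes and sequences were not placed in bins.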

Additional observations from a re-analysis of the deposited data

How the results depend on the processing

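Of 114 values recomputed under other settings, 92 stayed within 1 SD or, for percents of bins and lengths, within 1.5-fold, as did 47 of 50 under settings chosen after seeing the data. The SD is over cells, and over chromosomes for correlations. It is a wide limit, so these counts say little about stability: the SD of the arm difference, 7.59 points, exceeds its mean of 4.59 points. A mean run length of 2.53 bins after thinning, against 3.54 bins in the main setting, also counted as within it. The long arm stayed above the short arm (3.06 to 5.84 points) and chromosome 1 below the others (-6.76 to -3.05 points) in all 18 settings. With the ratio cutoff set to 0.5 or 2 the contact share was, by construction, 30.9% or 13.5%. Bins at 50% or more were 13.9% and 5.12% at cutoffs of 1.5 and 2, and bins under 5% were 22.5% at a cutoff of 0.5. Bins at 80% or more were the least stable: 5.88, 0 and 0% at cutoffs of 0.5, 1.5 and 2, 2.92% with 5 bins averaged, 0.135% from the lower-numbered columns alone, 1.44% from the higher-numbered, 0.853% and 1.39% in odd and even cells, 0.943% and 1.44% in cells 1 to 29 and 30 to 86, 7.18% in cells with at least 100000 reads, and 1.71% in the 73 cells with at least 30000 summed reads. Averaging 5 bins, which merges neighbours, gave runs of 11.8 bins and an adjacent correlation of 0.827. That correlation was 0.349 and 0.485 in cells 1 to 29 and 30 to 86, 0.546 in cells with at least 100000 reads and 0.313 after thinning. The corrected correlation of the arms was 0.0707 in cells 1 to 29. Bridging single bins took the longest free stretch to 17.2 Mb and made a 5.2 Mb block of the long arm the longest contacted one, in place of the 5.0 Mb stretch of the short arm. Beyond these constructions the cause was not tested. No paired analysis was possible because all cells form 1 group, with no second group to pair them with; arms and chromosomes were set against each other within each cell. Depth limits calls in the 13 cells in which a ratio of 1 is under 1 read, where bins may be missed and contacts may rest on 1 read. Run length moved with depth in a wider set: in the 73 cells thinned to 30000 reads it was 2.53 bins, against 3.82 at full depth.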
